A study of Mus musculus with 9 samples.

Results

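The genes described here are 7 genes of the thyroid hormone pathway in mouse cerebellum: the receptors Thra and Thrb, the deiodinases Dio2 and Dio3, the hormone response genes Klf9 and Hr, and the hormone-binding protein Crym. They were taken by gene symbol, as a set chosen with earlier results of these data known. All 7 were among the 19147 genes measured by at least 1 probe set with a single symbol. Together they have 13 probe sets: 4 for Klf9, 3 for Thrb, 2 for Dio2 and 1 for each of the others. The probe set with the highest mean over all 9 arrays stands for its gene, and the others are given beside it.

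The arrays measured total RNA of C57BL/6 mice at postnatal day 5, from tissue that the sample labels call brain and the design text cerebellum. Each of 3 groups held 3 samples with 1 array each: wild type, SmoA2 mutant and Smo/Smo mutant. SmoA2 mice carry a transgene for an activated form of Smoothened, the membrane protein that relays the Sonic hedgehog signal, under a Neurod2 promoter fragment that is active in granule neuron precursors. The labels do not spell out the Smo/Smo genotype. The design text names SmoA1 mice, with a transgene of similar design, as the other line, which leaves it for Smo/Smo by elimination. Sample codes are separate for every array, but nothing states how animals or litters were assigned. The p-values set group differences against the spread between samples of a group, and that spread may be technical in part. Codes of the Smo/Smo samples begin differently from all other codes, and whatever that difference stands for, which is not stated, cannot be told apart from genotype in any comparison with Smo/Smo. In whole tissue, fewer cells of a type and less RNA per cell cannot be told apart either.

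Thyroid hormone reaches the brain mainly as the prohormone thyroxine, which passes the blood-brain barrier and blood-cerebrospinal fluid barrier through transporters. Dio2, found mainly in astrocytes and tanycytes in the brain, converts thyroxine into the active hormone triiodothyronine, and Dio3 inactivates both. The hormone binds the nuclear receptors encoded by Thra and Thrb, which act on DNA as partners of retinoid X receptors. In the developing cerebellum the hormone is known for its part in the growth of Purkinje cell dendrites and in the exit of granule neuron precursors from the external granular layer.

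Dio2 was the member with the clearest difference between groups, so the 250 bases before its start site are shown first, followed by those of Dio3, the opposing enzyme, of the receptor gene Thrb (the first of its listed start sites), and of Thrsp, a hormone response gene outside the 7 that was called in both mutants. The sequences are from RefSeq (GRCm38.p6), in which 4 of the 7 members matched (Thrb, Dio2, Dio3 and Klf9). They are written 5′ to 3′ on the gene's strand, and capitals mark the motifs searched.
Dio2, chr12:90739039-90739288, minus strand: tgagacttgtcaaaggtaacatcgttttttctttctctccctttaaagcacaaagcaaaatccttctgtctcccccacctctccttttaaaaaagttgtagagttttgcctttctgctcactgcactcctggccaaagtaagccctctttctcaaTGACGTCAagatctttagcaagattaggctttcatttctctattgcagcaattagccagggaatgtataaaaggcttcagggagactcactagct
Dio3, chr12:110278980-110279229, plus strand: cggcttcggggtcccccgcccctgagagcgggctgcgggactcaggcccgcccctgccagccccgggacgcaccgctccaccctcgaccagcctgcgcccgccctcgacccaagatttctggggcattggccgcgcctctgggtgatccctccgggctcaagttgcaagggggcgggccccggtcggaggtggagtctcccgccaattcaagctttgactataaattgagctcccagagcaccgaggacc
Thrb, chr14:17660710-17660959, plus strand: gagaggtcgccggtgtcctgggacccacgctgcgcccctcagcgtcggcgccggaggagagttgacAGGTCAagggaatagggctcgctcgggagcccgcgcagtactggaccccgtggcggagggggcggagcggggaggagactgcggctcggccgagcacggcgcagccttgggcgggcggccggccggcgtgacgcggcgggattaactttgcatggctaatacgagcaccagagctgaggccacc
Thrsp, chr7:97417551-97417800, minus strand: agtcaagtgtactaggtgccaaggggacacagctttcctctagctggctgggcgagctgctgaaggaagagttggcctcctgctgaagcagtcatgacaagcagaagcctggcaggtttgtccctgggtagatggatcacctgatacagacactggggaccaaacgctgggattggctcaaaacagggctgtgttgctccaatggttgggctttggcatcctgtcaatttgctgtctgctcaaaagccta
Both strands were searched for 4 motifs: the core hexamer of hormone response elements (AGGTCA), its direct repeat with a spacer of 4 bases (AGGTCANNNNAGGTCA, which contains the hexamer), a Gli binding motif (GACCACCCA) and the palindromic cAMP response element (TGACGTCA). The Dio2 window held 1 cAMP response element, which began 95 bases before the start site. This element was in 1.55% of the 32851 windows of the same length in the table. The Thrb window held 1 hexamer, 184 bases before the start site, and 14.0% of all windows held one. The direct repeat (0.0152% of windows) and the Gli motif (0.225%) were in none of the 4 windows shown. The windows of Klf9 and of the other Thrb start site held none of the 4 motifs.

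Of the 7 genes, limma called none in SmoA2 against wild type, none in Smo/Smo against wild type, and Dio2 alone, lower, in SmoA2 against Smo/Smo (adjusted p below 0.05, by Benjamini-Hochberg over the 19147 genes). Over all genes the shares called were 2.69% (0.961% higher and 1.73% lower), 0.371% (0.214% and 0.157%) and 2.56% (1.02% and 1.54%), so with 7 members a count of 0 or 1 is near the background. At an unadjusted p under 0.05 the members numbered 3, 2 and 2 in the same order, against 14.8%, 8.77% and 14.3% of all genes. Every SmoA2 array was below every wild type array for Thra and Dio2 (10.2% of all genes) and above for Thrb (8.89%), so that 3 members did not overlap against 19.1% of all genes. In Smo/Smo every array was below wild type for Thra (8.12%) and above for Dio2 and Klf9 (7.82%), which makes 3 members against 15.9%. Between the mutants, SmoA2 was below for Dio2 (10.1%) and above for Thrb (8.12%), which makes 2 members against 18.2%. The median log2 fold change of the 7 was 0.01, -0.0027 and 0.02, beside 0.0059, 0.0055 and -0.0030 over all genes. The mutants share the same wild type arrays, so their comparisons with wild type are not independent.

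**Figure D1:**
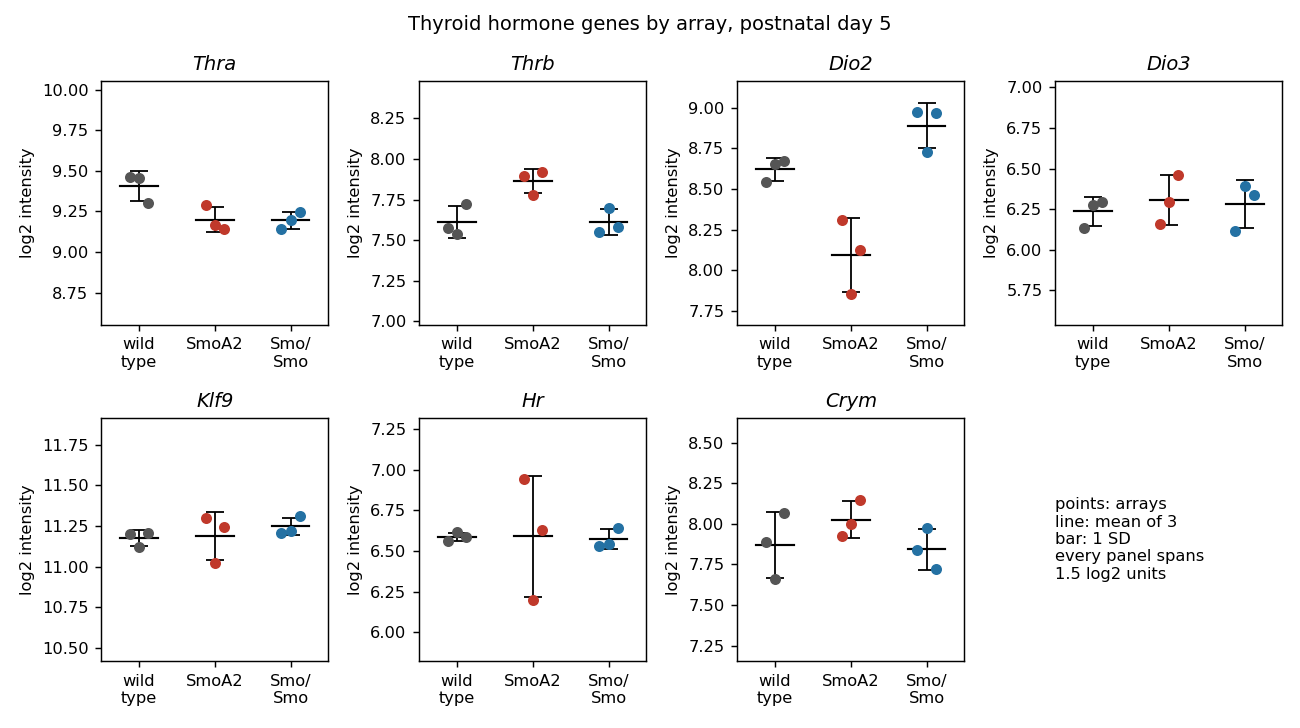
Log2 intensity of the 7 genes in each of the 9 arrays (points), by group, with the mean of 3 arrays (line) and 1 SD (bar); every panel spans the same number of log2 units. The SmoA2 arrays lie lowest and the Smo/Smo arrays highest for Dio2, the wild type arrays lie highest for Thra, and the SmoA2 arrays spread from 6.20 to 6.94 for Hr.

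Dio2, which makes the active hormone, was lowest in SmoA2, intermediate in wild type and highest in Smo/Smo. Its log2 intensity was 8.54, 8.65 and 8.67 in wild type replicates 1 to 3, 8.31, 7.86 and 8.12 in SmoA2, and 8.97, 8.73 and 8.97 in Smo/Smo. No array of a group lay within the range of another group. Dio2 was 1.74-fold lower in SmoA2 than in Smo/Smo (log2 fold change -0.80 ± 0.12, SE, n = 3 per group, 95% interval -1.06 to -0.53, limma adjusted p = 0.00969). Against wild type it stood at -0.53 ± 0.12 in SmoA2 (95% interval -0.79 to -0.26), with an adjusted p of 0.0505 in limma that misses the threshold. Against wild type in Smo/Smo it stood at 0.27 ± 0.12 (0.0071 to 0.53), with a limma adjusted p of 0.561. In the moderated F test over the 3 groups Dio2 was the member that passed (limma adjusted p = 0.0161), against 2.89% of all genes.

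The difference of Dio2 between the mutants kept its call in each of the 9 limma fits without 1 array (-0.90 to -0.68, adjusted p 0.0109 to 0.0465). It was not called in a fit without SmoA2 replicate 3 and wild type replicate 3, chosen with the values known (-0.81, limma adjusted p = 0.0570). The difference between SmoA2 and wild type was called in 1 of the 9 fits without 1 array. That fit left out SmoA2 replicate 1 (-0.63, limma adjusted p = 0.0342), and in the others the adjusted p reached 0.152. The difference was also called with genes under a mean log2 of 6 left out (limma adjusted p = 0.0238) and with an intensity trend and robust variances (0.0169). Without SmoA2 replicate 3 and wild type replicate 3 it was not called (limma adjusted p = 0.216). Nor was it called with quantile normalization (limma adjusted p = 0.0576), array weights (0.0668) or only the 2 groups compared (0.102). The mean of both Dio2 probe sets gave -0.35 (limma adjusted p = 0.0686). The other Dio2 probe set was dim: its group means were 4.41, 4.24 and 4.70 in wild type, SmoA2 and Smo/Smo. These lie below 4.996, the 95th percentile of the mean over 865 probe sets of olfactory receptors, which cerebellum is not expected to express. That probe set gave -0.46 ± 0.17 between SmoA2 and Smo/Smo (limma adjusted p = 0.263 over all probe sets) and was not read further.

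**Figure D2:**
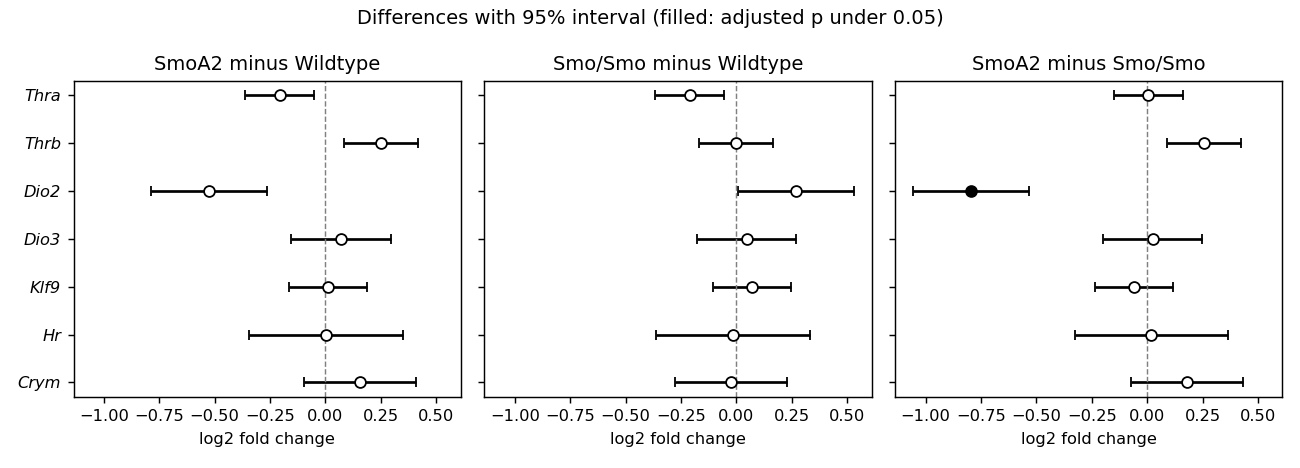
Log2 fold change of each of the 7 genes (x axis) in the 3 comparisons, with its 95% interval from limma; filled points have an adjusted p under 0.05. Dio2 in SmoA2 minus Smo/Smo, at -0.80, is the filled point, and the intervals of Dio3, Klf9, Hr and Crym include 0 in all 3 comparisons.

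Dio3, the inactivating deiodinase, did not differ between groups beyond its spread. Log2 intensities of Dio3 were 6.13, 6.28 and 6.30 (wild type), 6.16, 6.30 and 6.46 (SmoA2) and 6.12, 6.39 and 6.34 (Smo/Smo). All 3 groups overlapped. The differences from wild type were 0.07 ± 0.10 in SmoA2 (95% interval -0.15 to 0.30) and 0.05 ± 0.10 in Smo/Smo (-0.18 to 0.27), with limma adjusted p of 0.80 and 0.941. These intervals leave out a change of 2-fold in either direction at this probe set.

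Thra, which encodes the alpha receptor and a splice form that does not bind hormone, was lower in every mutant array than in every wild type array, but by an amount that did not pass the test. Log2 intensities of Thra were 9.46, 9.46 and 9.30 (wild type), 9.29, 9.17 and 9.14 (SmoA2) and 9.14, 9.20 and 9.25 (Smo/Smo). The gap between the lowest wild type array and the highest mutant array was narrow. The log2 fold change was -0.21 ± 0.07 in SmoA2 (limma adjusted p = 0.190) and -0.21 ± 0.07 in Smo/Smo (0.398), and 0.0049 ± 0.07 between the mutants (95% interval -0.15 to 0.16). The array has a single Thra probe set, and which splice forms it reads is not known here.

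Thrb, the beta receptor, was higher in the SmoA2 arrays than in all others, again without passing the test. Log2 intensities of Thrb were 7.58, 7.54 and 7.72 (wild type), 7.89, 7.78 and 7.92 (SmoA2) and 7.55, 7.70 and 7.58 (Smo/Smo). Wild type and Smo/Smo overlapped. The log2 fold change was 0.25 ± 0.07 against wild type (95% interval 0.09 to 0.42, limma adjusted p = 0.137) and 0.26 ± 0.07 against Smo/Smo (0.09 to 0.42, adjusted p = 0.132). In Smo/Smo against wild type it was -0.0027 ± 0.07. The other Thrb probe sets had group means of 4.48 to 4.83, within the range of olfactory receptor probe sets, and gave 0.04 and -0.13 in SmoA2 against wild type. The brightest probe set was thus the one that could be read.

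Klf9, a Krüppel-like transcription factor induced directly by the hormone, did not differ between groups by the test. Log2 intensities of Klf9 were 11.20, 11.12 and 11.21 (wild type), 11.30, 11.02 and 11.24 (SmoA2) and 11.21, 11.22 and 11.31 (Smo/Smo). The SmoA2 arrays spanned all of wild type, and the lowest Smo/Smo array (11.2104) was barely above the highest wild type array (11.2093). The differences from wild type were 0.01 ± 0.08 in SmoA2 (95% interval -0.16 to 0.19) and 0.07 ± 0.08 in Smo/Smo (-0.11 to 0.25). The other 3 probe sets gave -0.02, 0.05 and 0.11 in SmoA2 and 0.10, 0.04 and -0.0029 in Smo/Smo, with no call among them.

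Hr (hairless), a corepressor that is itself a hormone response gene of the brain, had similar group means and an uneven spread. Its log2 intensity was 6.56, 6.61 and 6.59 in wild type and 6.53, 6.54 and 6.64 in Smo/Smo, but 6.94, 6.20 and 6.63 in SmoA2. The SmoA2 arrays thus held both the highest and the lowest value of all 9. The SD was 0.03 (wild type), 0.37 (SmoA2) and 0.06 (Smo/Smo), and the pooled SD of Hr exceeded that of 90.6% of genes. The difference of 0.0029 ± 0.15 between SmoA2 and wild type has a 95% interval of -0.34 to 0.35, the widest among the 7 genes, so a moderate change in either direction was not detectable.

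Crym (mu-crystallin), which binds thyroid hormone in the cytosol, overlapped between all groups. Log2 intensities of Crym were 7.89, 7.66 and 8.06 (wild type), 7.93, 7.999 and 8.15 (SmoA2) and 7.84, 7.97 and 7.72 (Smo/Smo). SmoA2 stood at 0.16 ± 0.11 against wild type (95% interval -0.10 to 0.41, limma adjusted p = 0.578) and at 0.18 ± 0.11 against Smo/Smo (0.550). The first value moved between 0.05 without wild type replicate 2 and 0.25 without wild type replicate 3. Smo/Smo stood at -0.03 ± 0.11 against wild type.

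Other genes were read from pathway and cell type lists, whose counts of calls stand beside these shares of all genes. In SmoA2 against wild type 0.961% were higher and 1.73% lower, and in Smo/Smo against wild type 0.214% and 0.157%. In SmoA2 against Smo/Smo the shares were 1.02% and 1.54%. Around the 7 genes, transporters and carriers of the hormone were read from a list of 8, of which 7 were measured under a single symbol. With all arrays none was called against wild type, and 1 was lower in SmoA2 than in Smo/Smo. That gene was Slco1c1, the thyroxine transporter of brain endothelium, choroid plexus and astrocytes. Its log2 intensity was 10.65, 10.70 and 10.66 (wild type), 10.52, 10.46 and 10.52 (SmoA2) and 10.94, 10.86 and 10.85 (Smo/Smo). The order of its groups, with no overlap, was that of Dio2. Over all genes, every SmoA2 array was below wild type in 10.2%, and every Smo/Smo array above it in 7.82%. The share of genes with both was not counted. Slco1c1 was 1.31-fold lower in SmoA2 than in Smo/Smo (log2 fold change -0.39 ± 0.05, limma adjusted p = 0.00774), a call kept in each of the 9 fits without 1 array. Its differences from wild type were -0.17 ± 0.05 in SmoA2 (limma adjusted p = 0.157) and 0.21 ± 0.05 in Smo/Smo (0.225). The medians of the 7 transport genes were -0.04, 0.11 and -0.23 in the 3 comparisons, and the last is the value of Ttr, whose SE was 1.41 there.

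Ttr (transthyretin), the carrier of thyroxine in blood and cerebrospinal fluid, had the largest differences from wild type on this list, and is named here after its values were seen. Log2 values of Ttr were 11.39, 11.26 and 4.95 (wild type), 11.74, 11.84 and 11.93 (SmoA2) and 12.14, 12.03 and 12.04 (Smo/Smo). Every mutant array was above every wild type array (8.89% of all genes for SmoA2 and 7.82% for Smo/Smo). Wild type replicate 3 lay far below the other wild type arrays. With all arrays Ttr stood at 2.64 ± 1.41 in SmoA2 (limma adjusted p = 0.435) and 2.87 ± 1.41 in Smo/Smo (0.622). Without wild type replicate 3 it was called at 0.51 ± 0.08 in SmoA2 (limma adjusted p = 0.0247) and 0.75 ± 0.08 in Smo/Smo (0.0129). Ttr is also a choroid plexus marker, and the other markers of that list are described with the arrays.

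Deiodinase 1, proteins that ubiquitinate or deubiquitinate Dio2 and the machinery that inserts selenocysteine into deiodinases gave no call. Of 11 listed genes 10 were measured, and Dio1 lay within the olfactory receptor range in all groups. The smallest unadjusted p values belonged to Secisbp2, which binds the selenocysteine insertion element, and Marchf6, a ubiquitin ligase. Secisbp2 stood at 0.16 ± 0.06 in SmoA2 against Smo/Smo (limma adjusted p = 0.232) and at -0.16 ± 0.06 in Smo/Smo against wild type (0.477), and Marchf6 at -0.14 ± 0.06 in SmoA2 against wild type (0.304). The medians of the 10 genes were -0.0092, -0.01 and -0.07 in the 3 comparisons.

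Of 17 receptor partners and coregulators 15 were measured, and 2 fell in SmoA2 against wild type, with none called in Smo/Smo and 1 lower in SmoA2 than in Smo/Smo. The medians were -0.0061, -0.02 and -0.01. Rxrg, the gamma retinoid X receptor, gave log2 values of 8.48, 8.51 and 8.45 (wild type), 8.15, 8.25 and 8.24 (SmoA2) and 8.17, 8.29 and 8.26 (Smo/Smo). All 6 mutant arrays were below wild type (10.2% of all genes for SmoA2 and 8.12% for Smo/Smo). It fell by 0.27 in SmoA2 (SE 0.06, limma adjusted p = 0.0475), a call that ended in each of the 9 fits without 1 array (adjusted p 0.0604 to 0.157). In Smo/Smo it stood at -0.24 ± 0.06 (limma adjusted p = 0.192). Ppargc1a, a coactivator of nuclear receptors, had 8.04, 8.11 and 7.99 (wild type), 7.66, 7.73 and 7.70 (SmoA2) and 8.15, 8.10 and 8.01 (Smo/Smo). It fell by 0.35 in SmoA2 against wild type (SE 0.06, limma adjusted p = 0.0192) and was lower than in Smo/Smo by a log2 fold change of -0.39 (0.0127). The first call ended without SmoA2 replicate 1 or without wild type replicate 1 or 2 (limma adjusted p up to 0.0808), and the second without SmoA2 replicate 1 or Smo/Smo replicate 1 or 2 (up to 0.0650).

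Other hormone response genes went in both directions. Of 17 listed, 13 were measured: 1 rose and 2 fell in SmoA2 against wild type, 1 rose in Smo/Smo, and 2 were lower in SmoA2 than in Smo/Smo, with medians of -0.09, 0.03 and -0.07. Thrsp (Spot 14), a regulator of lipid synthesis induced by the hormone in liver, gave log2 values of 10.62, 10.56 and 10.66 (wild type), 11.14, 11.12 and 11.20 (SmoA2) and 11.11, 10.97 and 11.02 (Smo/Smo). Every mutant array was above every wild type array (8.89% of all genes for SmoA2 and 7.82% for Smo/Smo). Thrsp rose 1.46-fold in SmoA2 (log2 fold change 0.54 ± 0.06, limma adjusted p = 0.00199) and 1.34-fold in Smo/Smo (0.42 ± 0.06, adjusted p = 0.0220). The SmoA2 call was kept in all 9 fits without 1 array, while the Smo/Smo call ended in the 6 fits that left out a wild type or Smo/Smo array (limma adjusted p 0.0557 to 0.118).

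The response genes that fell in SmoA2 were Pcp2 and Rora, both strongly expressed in Purkinje cells. Pcp2, a Purkinje cell protein, had 11.95, 11.96 and 11.87 (wild type), 11.28, 11.11 and 11.56 (SmoA2) and 11.98, 11.96 and 11.96 (Smo/Smo). It fell 1.52-fold against wild type (limma adjusted p = 0.0143) and was 1.57-fold lower than in Smo/Smo (0.0120). Rora, an orphan nuclear receptor needed for Purkinje cell maturation, had 10.18, 10.22 and 10.15 (wild type), 9.87, 9.72 and 9.63 (SmoA2) and 10.03, 10.09 and 10.12 (Smo/Smo). It fell 1.36-fold against wild type (limma adjusted p = 0.0116) and was 1.27-fold lower than in Smo/Smo (0.0419). Its other probe set gave -0.32 against wild type (limma adjusted p = 0.164 over all probe sets) and -0.28 against Smo/Smo (0.215). With the mean of both probe sets Rora was not called against Smo/Smo (-0.31, limma adjusted p = 0.0758). The Pcp2 call against wild type ended without SmoA2 replicate 1 or without wild type replicate 1 or 2 (limma adjusted p up to 0.0657), and the Rora call without wild type replicate 1 or 2 (up to 0.0565). Against Smo/Smo, the Pcp2 call ended without SmoA2 replicate 1 or any Smo/Smo array (up to 0.0565), and the Rora call in every fit without 1 array except that without SmoA2 replicate 1 (up to 0.142).

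**Figure D3:**
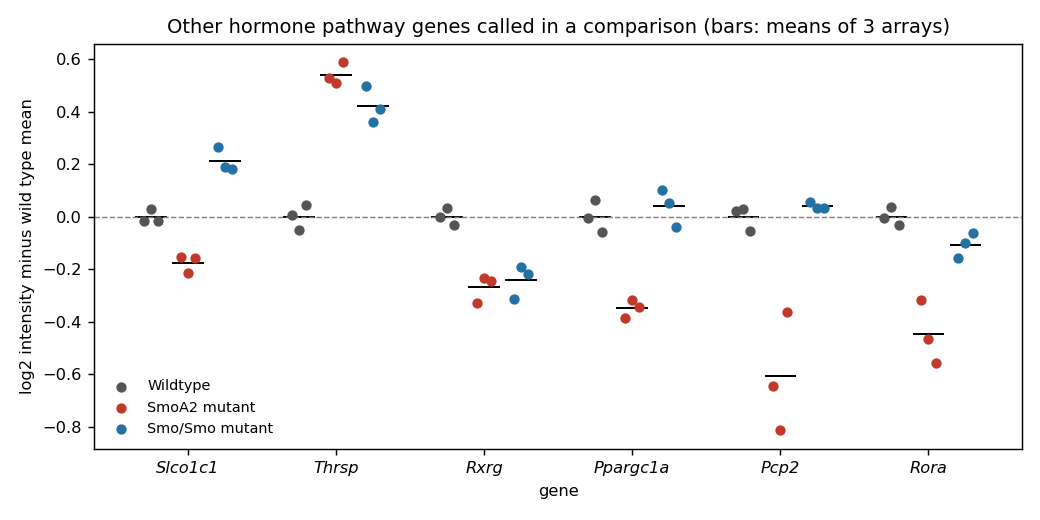
Log2 intensity of 6 other hormone pathway genes in each array, as the difference from the wild type mean of the gene (y axis), by group; bars are means of 3 arrays. Thrsp is above wild type in all mutant arrays and Rxrg below it in all of them, while Ppargc1a, Pcp2 and Rora are lowest in SmoA2 and Slco1c1 is low in SmoA2 and high in Smo/Smo.

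Cell type markers moved with several of these genes, and their part in the results was not tested. Of 10 markers of Bergmann glia and astrocytes, the cells in which Dio2 is mainly found, 2 fell in SmoA2 against wild type (Gdf10 and Gjb6) and 2 were lower than in Smo/Smo (Gdf10 and Hopx). The log2 of their summed intensity was 15.23 to 15.29 in SmoA2, 15.40 to 15.47 in wild type and 15.40 to 15.44 in Smo/Smo. Of 10 endothelial and mural markers, which include Slco1c1 itself, 2 fell in SmoA2 against wild type and 4 were lower than in Smo/Smo. Their summed level was 12.96 to 13.02 in SmoA2, 13.12 to 13.13 in wild type and 13.22 to 13.28 in Smo/Smo, an order that Dio2 and Slco1c1 share. Of 10 meningeal fibroblast markers 7 fell in SmoA2 against wild type and 4 were lower than in Smo/Smo, with summed levels of 12.73 to 13.02 in SmoA2, 13.33 to 13.39 in wild type and 13.25 to 13.30 in Smo/Smo. The 8 measured Purkinje cell markers include the response genes Pcp2 and Rora themselves. Of these 8, 4 fell in SmoA2 against wild type (Pcp2, Rora, Lhx5 and Gad1) and 3 were lower than in Smo/Smo (Pcp2, Rora and Gad1). The summed level was 14.32 to 14.48 in SmoA2, 14.70 to 14.78 in wild type and 14.72 to 14.75 in Smo/Smo. Markers of granule neurons summed to 13.42 to 13.49 in SmoA2, below 13.59 to 13.64 in both other groups. Of the 6 measured, Grin2c rose in both mutants against wild type and Cntn2 was lower in SmoA2 than in Smo/Smo. None of the measured markers in these 5 lists lay within the olfactory receptor range. Sums of microglia and macrophage markers overlapped between SmoA2 (11.78 to 12.11) and wild type (11.74 to 11.81), and were lower in Smo/Smo (11.48 to 11.67). In this list 1 marker lay within the olfactory receptor range. Of the 8 measured, Aif1 and P2ry12 were higher and Mrc1 was lower in SmoA2 than in Smo/Smo, and Mrc1 fell against wild type. Sums of granule neuron progenitor markers overlapped: 14.97 to 15.03 in SmoA2, 15.00 to 15.03 in wild type and 14.97 to 15.06 in Smo/Smo. Of these 8 markers, 1 was higher in SmoA2 than in wild type and 1 than in Smo/Smo. Both counts held in every fit without 1 array. Sums of oligodendrocyte lineage markers overlapped as well: 13.35 to 13.46 in SmoA2, 13.32 to 13.44 in wild type and 13.37 to 13.53 in Smo/Smo. Of the 8 measured, none was called against wild type with all arrays, and 1 was lower in SmoA2 than in Smo/Smo. That call was absent in some fits without 1 array, and without SmoA2 replicate 1, 1 marker was higher in SmoA2 than in wild type.

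Some of these marker counts moved when 1 array was left out. The number lower in SmoA2 than in wild type ranged from 2 to 3 for glia, 0 to 1 for endothelial and mural cells, 3 to 7 for meninges and 2 to 5 for Purkinje cells. Against Smo/Smo it ranged from 1 to 2, 1 to 4, 3 to 7 and 0 to 3. No granule neuron marker was lower than in Smo/Smo except in the fit without SmoA2 replicate 3. None was higher in Smo/Smo than in wild type without Smo/Smo replicate 2, wild type replicate 1 or wild type replicate 2. Microglia and macrophage markers higher in SmoA2 than in Smo/Smo numbered 0 to 1 without a Smo/Smo array.

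**Figure D4:**
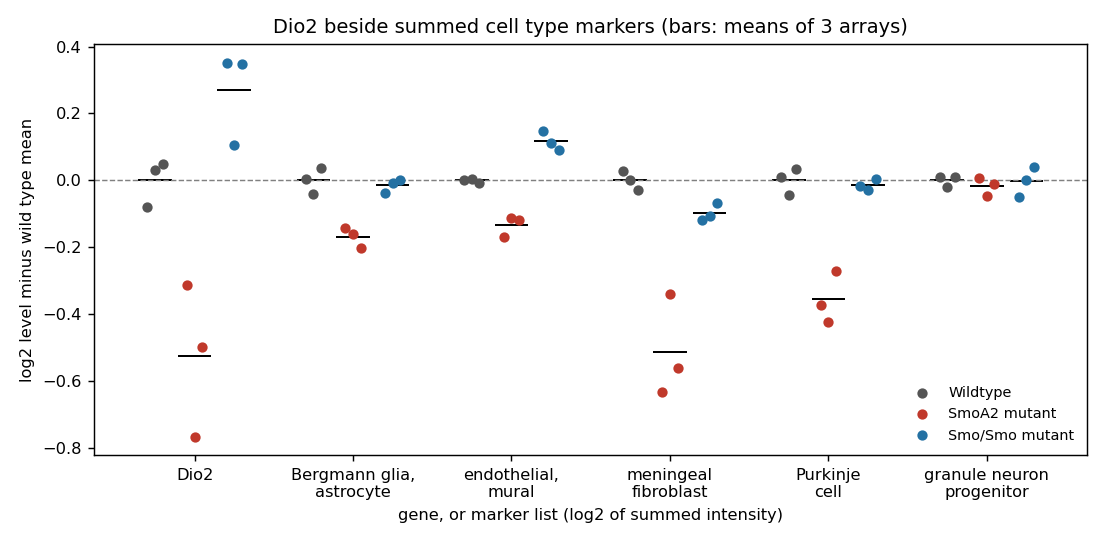
Dio2 (log2 intensity) and 5 lists of cell type markers (log2 of the summed intensity), each as the difference from its wild type mean (y axis), in every array; bars are means of 3 arrays. The SmoA2 arrays are below wild type for Dio2 and the first 4 lists. The Smo/Smo arrays are above it for Dio2 and the endothelial list. The sums of granule neuron progenitor markers overlap between the groups.

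Array medians lay between 90.99 and 95.13 in intensity, and the correlation between arrays across probe sets between 0.994 and 0.998. Gli1, a target of hedgehog signalling, was higher in SmoA2 against wild type (log2 fold change 0.50 ± 0.07, limma adjusted p = 0.00801), with 0.08 ± 0.07 in Smo/Smo (0.825). The SmoA2 call of Gli1 was kept in each of the 9 fits without 1 array. It ended without SmoA2 replicate 3 and wild type replicate 3 together (0.46, limma adjusted p = 0.0775). Ptch1, another target, gave 0.26 ± 0.05 (limma adjusted p = 0.0371, a call that ended in each of the 9 fits without 1 array, 0.0650 to 0.123) and 0.08 ± 0.05 (0.741). Smo gave -0.17 ± 0.11 and -0.03 ± 0.11. The first value moved between -0.31 without SmoA2 replicate 3 (limma adjusted p = 0.0515) and -0.09 without SmoA2 replicate 1, and whether its probe set reads the transgene is not known. Purkinje cell and granule neuron progenitor markers were all above the olfactory receptor range, whereas 3 of 6 measured forebrain and 4 of 6 measured brainstem and midbrain markers lay within it. The summed choroid plexus markers were 10.87 in wild type replicate 3 and 12.53 and 12.60 in the other wild type arrays, beside 13.02 to 13.27 in SmoA2 and 13.27 to 13.47 in Smo/Smo. Like Thrsp, this sum was higher in every mutant array than in every wild type array, and its part in the result on Thrsp was not tested. None of the 10 choroid plexus markers was called against wild type with all arrays. Without wild type replicate 3, 6 were higher in SmoA2 and 8 in Smo/Smo. Without wild type replicate 3, Dio2 gave -0.50 in SmoA2 and 0.29 in Smo/Smo against wild type.

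The genes most like Dio2, by Pearson correlation of log2 values over the 9 arrays among 12028 others with a mean of at least 6, were Tmem154 (r = 0.963), Itprid2 (0.954) and Car4 (0.951). The group means of Car4, a carbonic anhydrase found on brain capillaries, were 9.47 (wild type), 9.15 (SmoA2) and 9.80 (Smo/Smo). Those of Tmem154, a membrane protein gene, were 6.89, 6.21 and 7.03, and those of Itprid2 were 9.55, 9.40 and 9.69. These genes were picked for this likeness, and the 9 points share the same 3 groups.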

How the data were processed

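Affymetrix arrays of 9 samples were used. Per the submitters' processing notes, the authors summarised probe sets by RMA; no version is given. The deposited values are intensity on a linear scale, so log2 was taken before every test. Symbols came from the platform annotation: 24478 of 38385 probe sets had 1 symbol, 65 several and 13842 none, and the last 2 kinds were not analysed here. limma 3.58.1 (R 4.3.3) modelled the 9 arrays by group, without covariates, and p-values were adjusted by Benjamini-Hochberg over 19147 genes. Errors are limma standard errors or, of replicates, SDs. Depth does not apply to arrays, whose number limits the precision. The fit was tested on simulated data. Alternatives were another probe set rule, a filter at a mean log2 of 6, quantile normalization, trended robust variances, array weights, fits of 2 groups and leaving out each array.

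The members and lists were chosen with earlier results of these data known. Named genes are the members, the called genes of each pathway list or else its 2 smallest p, the 3 genes most correlated with a member that passes the F test, and Smo, Gli1 and Ptch1. Figures used matplotlib 3.10.9 in Python 3.11.15.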

Additional observations from a re-analysis of the deposited data

Results flagged for a closer look

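By the limma test of SmoA2 minus Smo/Smo, effects against wild type differed between the mutant lines for Dio2 among the 7 genes, for 4 of the other pathway genes named, for Gli1 and for the 3 genes most like Dio2. Dio2 differed by -0.80 on the log2 scale (-0.53 in SmoA2 and 0.27 in Smo/Smo, each against wild type). Slco1c1 differed by -0.39 (-0.17 and 0.21), with all SmoA2 arrays below and all Smo/Smo arrays above wild type, as for Dio2. Ppargc1a differed by -0.39 (-0.35 and 0.04), Pcp2 by -0.65 (-0.61 and 0.04) and Rora by -0.34 (-0.45 and -0.11). Gli1 differed by 0.42 (0.50 and 0.08), a call lost without SmoA2 replicate 1 or any Smo/Smo array (limma adjusted p up to 0.0890). Tmem154 differed by -0.81 (-0.67 and 0.14), Car4 by -0.65 (-0.32 and 0.33) and Itprid2 by -0.29 (-0.15 and 0.14). These 3 genes were picked for their likeness to Dio2, so their differences are no separate evidence. The call of Itprid2 was kept in 1 of the 9 fits without 1 array, and that of Car4 in 7. With the mean of all its probe sets Itprid2 differed by -0.08 and was not called (limma adjusted p = 0.647). Several cell type markers named in the report, Gdf10, Hopx, Gad1 and Cntn2 among them, also passed this test. What the different sample code of the Smo/Smo group stands for is not stated, and it cannot be told apart from genotype.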

How the results depend on the processing

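Of 357 values of the 7 members under the alternatives, 319 kept their direction and their side of the threshold. The count of members called in SmoA2 against wild type was 1 in place of 0, with Dio2 called, with a filter at a mean log2 of 6 or trended robust variances, and 0 to 1 without single arrays. Between the mutants it stayed at 1 without single arrays (Dio2 at -0.90 to -0.68), and was 0 without SmoA2 replicate 3 and wild type replicate 3, a setting added with the data known (Dio2 at -0.81). In Smo/Smo against wild type it stayed 0. With only the 2 groups compared, calls of other named genes ended. In SmoA2 against wild type these were Pcp2 (limma adjusted p = 0.0643), Rora (0.0526), Ppargc1a (0.0617), Ptch1 (0.1241) and Rxrg (0.1185). In Smo/Smo it was Thrsp (0.0744). Between the mutants they were Gli1 (0.0653), Pcp2 (0.0524), Rora (0.1199), Car4 (0.0555) and Itprid2 (0.1087). Rxrg was also not called with quantile normalization (0.0781) or with all probe sets tested (0.0573). Leaving out SmoA2 replicate 3 and wild type replicate 3 together also ended calls of named genes. In SmoA2 against wild type these were Gli1 (limma adjusted p = 0.0775), Ptch1 (0.1308), Rxrg (0.1277), Ppargc1a (0.0755) and Rora (0.0676). In Smo/Smo it was Thrsp (0.0749), and between the mutants, beside Dio2, Gli1 (0.0706), Rora (0.1149) and Itprid2 (0.1047). Directions turned only in values that were not called. With array weights these were Klf9 (-0.0128) and Hr (-0.0081) in SmoA2 against wild type, Thrb in Smo/Smo (0.0332) and Dio3 between the mutants (-0.0465). With quantile normalization they were Thrb in Smo/Smo (0.0098) and Thra between the mutants (-0.0018). With the mean of all probe sets it was Itprid2 in Smo/Smo (-0.0061). With the 2 arrays left out they were Hr in SmoA2 (-0.0164), Thrb (0.0531), Crym (0.0722) and Smo (0.0086) in Smo/Smo, and Dio3 (-0.0539) and Hr (-0.0015) between the mutants. Without single arrays the ranges that cross 0 in SmoA2 against wild type were those of Dio3 (-0.0074 to 0.14), Klf9 (-0.0437 to 0.0944), Hr (-0.17 to 0.20) and Secisbp2 (-0.0274 to 0.0328). In Smo/Smo they were those of Thrb (-0.0482 to 0.0531), Dio3 (-0.0090 to 0.13), Hr (-0.0502 to 0.0068), Crym (-0.13 to 0.0722) and Smo (-0.0739 to 0.0086). Between the mutants they were those of Thra (-0.0399 to 0.0328), Dio3 (-0.0595 to 0.0974), Klf9 (-0.11 to 0.0239), Hr (-0.16 to 0.21) and Rxrg (-0.0624 to 0.0039). The cause of these changes was not tested. No paired analysis was possible because the sample labels give no replicate numbers shared between groups. Probe sets near the olfactory receptor range and the 3 arrays per group limit what could be detected.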

Other observations

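Genes beside the members in the genome were read from a list of 11, of which 10 were measured: Nr1d1 and Rara near Thra, Nr1d2, Rarb and Top2b near Thrb, and Dlk1, Meg3, Rtl1, Rian and Mirg of the imprinted cluster that ends at Dio3. With all arrays and genes none was called by limma in any of the 3 comparisons, with medians of 0.04, 0.03 and -0.03 on the log2 scale. Nr1d1, the circadian repressor gene whose transcript overlaps that of Thra on the opposite strand, gave log2 values of 8.32, 8.36 and 8.26 (wild type), 8.25, 8.07 and 8.01 (SmoA2) and 8.38, 8.40 and 8.36 (Smo/Smo). It stood at -0.27 ± 0.07 between SmoA2 and Smo/Smo (limma adjusted p = 0.0895), and was called there with genes under a mean log2 of 6 left out (0.0391) and without SmoA2 replicate 1 (-0.34, 0.0460). Rtl1, a gene derived from a retrotransposon, stood at 0.39 ± 0.12 in Smo/Smo against wild type (limma adjusted p = 0.356; 0.25 to 0.52 without single arrays), with its other probe set within the olfactory receptor range.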
